A study of Mus musculus with 21 samples.

Results

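Ccl2, Cxcl1, Vcam1, Icam1, Cd14, Nfkb2 and Tnfaip2 are 7 inflammatory genes known as targets of NF-kB, and they are described here across 7 groups of primary mouse hepatocytes. They are 7 of the 9657 genes measured, and all 7 had a value above 0 in every library. They were chosen from their measured levels at the low dose against PBS and at the high dose against the low dose, so their differences in those contrasts, in the high dose against PBS, which is the sum of both, and between agents, which are differences of those contrasts, are given as a description, and nothing is supported with them. The cells were wild-type (WT) primary hepatocytes, the parenchymal cells of the liver, treated with PBS or with RNAi agents against Ttr, the gene of the plasma carrier transthyretin. There were 3 agents, labelled TTR-1236, TTR-1186 and Reference 4, and how they differ in structure is not given in the labels. Each was given at 0.2 µM and at 2 µM, and all cells were taken on Day 1. RNA was measured by QuantSeq, a 3′ mRNA-seq method that reads the ends of polyadenylated transcripts, in 3 libraries a group and 21 in all.

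NF-kB is a family of dimeric transcription factors held inactive in the cytoplasm by inhibitor proteins of the IkB family. Cytokine and Toll-like receptors act through adaptors and the IKK kinases to destroy the inhibitor, and the freed dimers switch on chemokines, adhesion molecules and the pathway's own inhibitors and subunits. In liver, hepatocytes answer such signals with chemokines and acute phase proteins, while Kupffer cells, endothelial cells and stellate cells are further sources of the same transcripts. Values are CPM, each library's reads scaled to a sum of 1000000. In bulk RNA a smaller number of expressing cells and less RNA per cell cannot be told apart.

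The promoter sequences are shown because the genes are grouped as NF-kB targets, and they let the letters of that motif be seen. RefSeq windows on GRCm38.p6, each from 250 bases before to 50 bases after a transcript start, were held for 4 of the 7 genes, namely Cxcl1, Icam1, Tnfaip2 and Nfkb2. Both strands were searched for the NF-kB decamer consensus, written as GGGRNNYYCC, for the AP-1 motif TGANTCA and for TATAAA. In these, R is A or G, Y is C or T, and N is any base. Of 32851 windows of 300 bases, 8.46% held the decamer, 7.81% held TGANTCA and 13.6% held TATAAA. Letters matching the decamer are in capitals, sequences run 5′ to 3′ on the plus strand, and a match is a description of the letters, not a site of binding. The stretches for Cxcl1 (chr5:90890995-90891234) and Icam1 (chr9:21015690-21015929) cover the bases from 250 to 11 before the start.
Cxcl1: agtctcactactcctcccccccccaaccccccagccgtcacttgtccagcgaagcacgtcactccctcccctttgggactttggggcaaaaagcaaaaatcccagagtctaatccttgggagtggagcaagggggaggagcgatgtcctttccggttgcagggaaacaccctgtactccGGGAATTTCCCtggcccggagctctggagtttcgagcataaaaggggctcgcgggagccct
Icam1: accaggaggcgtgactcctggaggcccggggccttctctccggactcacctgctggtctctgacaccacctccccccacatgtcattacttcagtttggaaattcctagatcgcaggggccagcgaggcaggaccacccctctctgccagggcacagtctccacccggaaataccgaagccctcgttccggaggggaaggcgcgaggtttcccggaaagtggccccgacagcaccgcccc

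The Cxcl1 window held 1 matched stretch of the decamer, beginning 71 bases before the start. The second Nfkb2 window also held TGANTCA, and the Icam1 window TATAAA, after its start. No stretch of the Icam1 window matched GGGRNNYYCC, which says only that these letters are not in it. It does not show that the window lacks NF-kB sites with other letters. For Tnfaip2 and Nfkb2 short stretches around the matches are shown. The Tnfaip2 match lies at chr12:111442637-111442646. The matches of the first Nfkb2 window lie at chr19:46304698-46304708 and chr19:46304726-46304735, and that of the second printed here at chr19:46305705-46305714.
Tnfaip2: tattttaGGAGGGCCCCtccaggg
Nfkb2 first window, upstream match: tcgtcacGGGAATTCCCCccctcgg
Nfkb2 first window, match next to the start: gccgaaaGGGGCTTTCCcggctgg
Nfkb2 second window: tattttcGGGACTTTCCtaagcag

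Library totals ran from 14158740 to 37410773 reads over the genes in the files. Ttr, the target, was between 2168 and 2336 CPM in the PBS libraries and between 3.19 and 27.1 CPM in the treated ones. The 11 measured of 12 hepatocyte markers summed to between 19118 and 32269 CPM. Of the markers of other liver cells, 2 of 15 Kupffer cell and macrophage genes, 3 of 11 endothelial, 3 of 12 stellate and 3 of 6 cholangiocyte genes had values. Clec4f, Vsig4, Lyve1, Lrat and Epcam were among those without a value. The lowest mean of a gene with values was 1.22 CPM, and a missing value does not show that a gene was silent. No label ties the libraries of a group to separate animals or cultures. The p-values therefore cover the spread among these libraries alone, and that spread may be technical.

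Positions are those of mm10. Of the ligands, Ccl2, the chemokine that draws monocytes through the receptor Ccr2, lies on chromosome 11, plus strand, at 82035571 to 82037453. The PBS libraries held it at 65.8, 71.7 and 56.3 CPM. At 0.2 µM it was 56.4, 62.9 and 45.1 CPM with TTR-1236, 55.4, 29.8 and 33.5 CPM with TTR-1186, and 24.01, 16.2 and 21.6 CPM with Reference 4. The TTR-1236 libraries overlapped PBS, while all 3 libraries of each of the other agents were below it. At 2 µM the levels were 37.1, 72.8 and 24.5 CPM with TTR-1236, 50.7, 77.4 and 79.1 CPM with TTR-1186, and 54.3, 70.2 and 90.3 CPM with Reference 4, and all 3 groups overlapped PBS. On the log2(CPM + 1) scale, on which changes of genes at a low level look smaller than they are, the low dose differed from PBS by -0.24 with TTR-1236, -0.74 with TTR-1186 and -1.61 with Reference 4 (SE 0.30 each, n = 3 libraries a group). From the low to the high dose the differences were -0.41, 0.81 and 1.74 in the same order. With TTR-1236 the high dose group was the most scattered, with 1 library above every PBS library and another close to the Reference 4 libraries at 0.2 µM, and it overlapped its own low dose group.

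Cxcl1, a chemokine that draws neutrophils through Cxcr2, is found on the plus strand of chromosome 5 between 90891241 and 90893115. It was at 14.5, 17.7 and 13.4 CPM in PBS. The 0.2 µM libraries were at 11.4, 18.5 and 9.09 CPM with TTR-1236, at 12.1, 3.0 and 5.31 CPM with TTR-1186 and at 8.33, 2.40 and 4.25 CPM with Reference 4. The order of the agents was that of Ccl2, with TTR-1236 overlapping PBS and the other two groups wholly below it. At 2 µM the libraries ranged from 8.99 to 26.6 CPM with TTR-1236, from 13.2 to 21.7 CPM with TTR-1186 and from 9.52 to 28.5 CPM with Reference 4, each overlapping PBS. The log2 differences at the low dose against PBS were -0.26, -1.22 and -1.55, and those of the high against the low dose were 0.26, 1.42 and 1.81 (SE 0.46), for TTR-1236, TTR-1186 and Reference 4. The high dose libraries of TTR-1186 and of Reference 4 were all above the low dose libraries of the same agent. The dose difference with TTR-1236 went from 0.26 to -0.12 without its second library at 2 µM.

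Cd14, the co-receptor that hands bacterial lipopolysaccharide to the Toll-like receptor complex, is encoded on the minus strand of chromosome 18, from 36725067 to 36726798. In PBS it was at 29.7, 26.2 and 15.5 CPM. It stood at 18.04, 23.2 and 14.96 CPM with TTR-1236 at 0.2 µM, at 16.6, 3.69 and 8.45 CPM with TTR-1186 and at 7.13, 3.94 and 5.60 CPM with Reference 4. Only the Reference 4 libraries were all below the PBS libraries, since the highest TTR-1186 library was just above the lowest PBS library. At 2 µM it was at 11.7, 33.1 and 8.66 CPM with TTR-1236, at 19.3, 24.2 and 37.9 CPM with TTR-1186 and at 16.5, 32.4 and 44.5 CPM with Reference 4. The log2 differences were -0.30, -1.38 and -1.90 for the low dose against PBS and -0.27, 1.56 and 2.22 for the high against the low dose (SE 0.47). The dose difference with TTR-1236 was 0.10 without the third TTR-1236 library at 2 µM. The difference between the doses of Reference 4 was the widest of any of the 7 genes in any of the 9 contrasts with PBS or between doses, except that of Tnfaip2 at the low dose of TTR-1236.

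**Figure D1:**
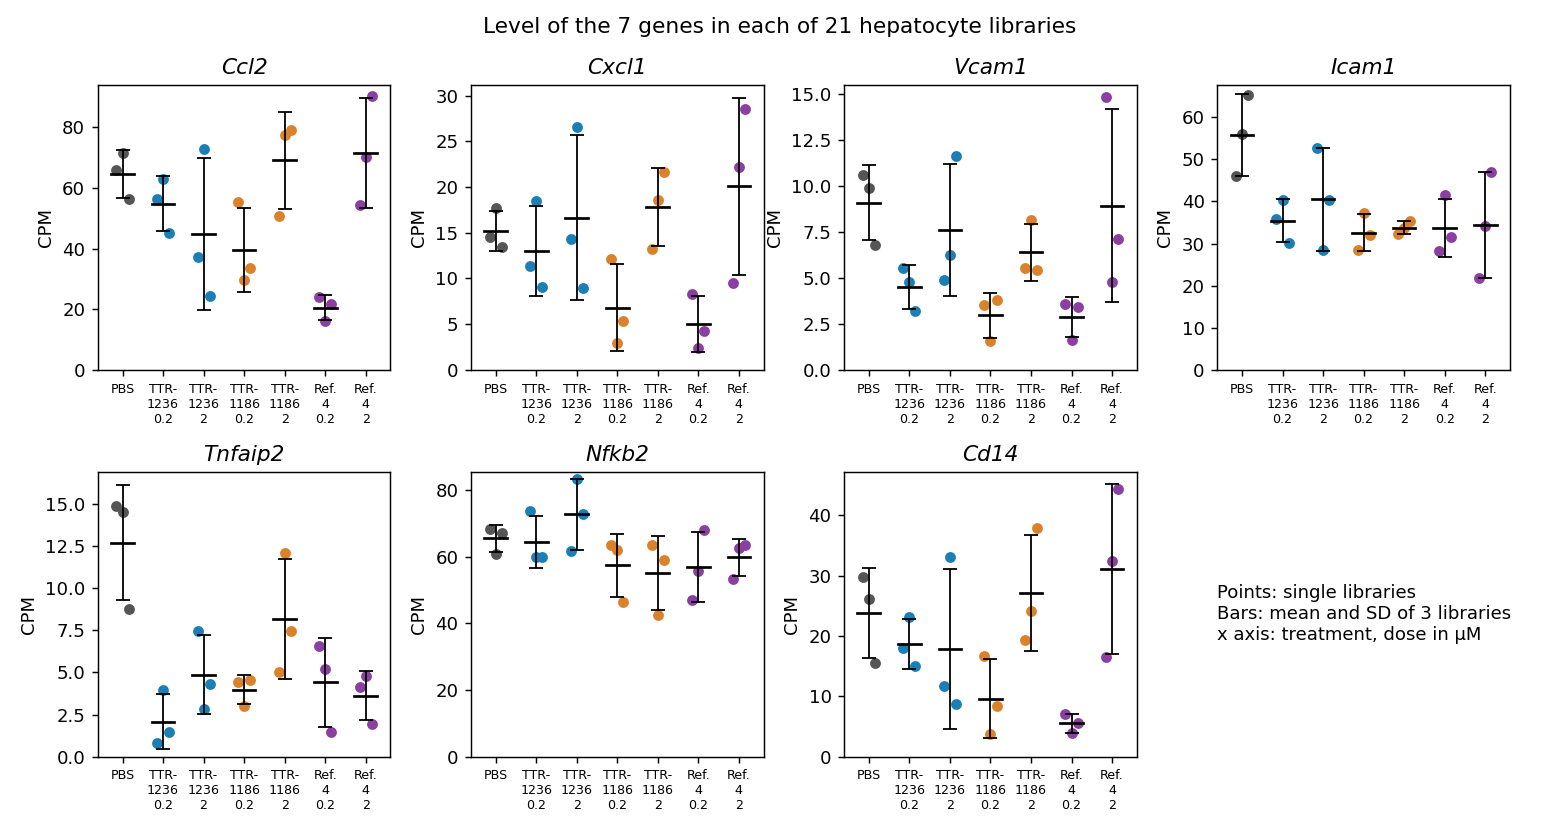
Level in CPM (y axis, linear from 0) of each of the 7 genes in the PBS group and in the groups of TTR-1236, TTR-1186 and Reference 4 at 0.2 and 2 µM (x axis). Points are single libraries and bars the mean and SD of 3. Ccl2, Cxcl1 and Cd14 share a low point at 0.2 µM of Reference 4, Icam1 is highest on average in PBS, Tnfaip2 is low in most treated libraries, and Nfkb2 is level.

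Of the adhesion molecules, Vcam1, the endothelial ligand of integrin alpha-4 beta-1, lies on the minus strand of chromosome 3, from 116109949 to 116129688. Its PBS libraries were at 10.6, 9.89 and 6.80 CPM. All 9 libraries at 0.2 µM were lower, at 5.56, 4.78 and 3.22 CPM with TTR-1236, 3.55, 1.56 and 3.79 CPM with TTR-1186 and 3.60, 1.60 and 3.44 CPM with Reference 4. At 2 µM the groups ran from 4.90 to 11.7, from 5.45 to 8.16 and from 4.8 to 14.8 CPM, and each overlapped PBS. The log2 differences at the low dose were -0.87, -1.38 and -1.40, and those between the doses 0.59, 0.93 and 1.27 (SE 0.42), for TTR-1236, TTR-1186 and Reference 4. Its library with the highest level, at 2 µM of Reference 4, was the one with the lowest Ccl2, Cxcl1 and Cd14 of that group.

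Icam1, the ligand of the leukocyte integrin LFA-1, maps to chromosome 9 between 21015985 and 21028817 on the plus strand. Its PBS libraries were at 46.0, 56.0 and 65.3 CPM. The 0.2 µM libraries were at 35.7, 40.4 and 30.2 CPM with TTR-1236, at 28.5, 37.2 and 32.1 CPM with TTR-1186 and at 28.2, 41.5 and 31.6 CPM with Reference 4, all below PBS. The 2 µM groups were at 28.4 to 52.8, at 32.3 to 35.3 and at 21.8 to 46.9 CPM, of which the TTR-1186 group alone lay wholly below PBS. The log2 differences at the low dose were -0.63, -0.75 and -0.71, close to each other among the agents, and those between the doses were 0.15, 0.06 and -0.02 (SE 0.25). Each of these dose differences changed sign without 1 library: to -0.06 without the first TTR-1236 library at 2 µM, to -0.03 without the first TTR-1186 library at 0.2 µM, and to 0.13 and 0.26 without the second Reference 4 library at 0.2 µM or the first at 2 µM. Icam1 was thus as far below PBS at 2 µM as at 0.2 µM with TTR-1186, at -0.69 and -0.75, and with Reference 4, at -0.74 and -0.71. The antisense gene Gm47079, at a mean of 37.5 CPM, overlaps its 3′ end, and with no stated strand setting the reads of the pair cannot be told apart.

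Tnfaip2, a gene induced by tumour necrosis factor whose product acts in membrane protrusion and exocytosis, is encoded on the plus strand of chromosome 12 at 111442469 to 111455018. Its PBS libraries were at 14.9, 14.5 and 8.77 CPM. With TTR-1236 it was at 0.84, 3.93 and 1.46 CPM at 0.2 µM, with TTR-1186 at 4.42, 3.0 and 4.55 CPM and with Reference 4 at 6.57, 5.21 and 1.48 CPM, so all 9 low dose libraries were below PBS. The lowest of them, at 0.84 CPM, had a 95% Poisson interval of 0.533 to 1.26 CPM, which covers counting error only, as reads without molecular identifiers are not independent molecules. At 2 µM the libraries were at 7.43, 2.84 and 4.31 CPM with TTR-1236, at 5.05, 12.1 and 7.45 CPM with TTR-1186 and at 4.15, 4.77 and 1.96 CPM with Reference 4. Those of TTR-1236 and Reference 4 were below PBS and those of TTR-1186 overlapped it. The log2 differences were -2.25, -1.44 and -1.45 at the low dose against PBS, -1.27, -0.62 and -1.59 at the high dose, and 0.98, 0.82 and -0.14 between the doses (SE 0.48). The last was 0.18 without the first Reference 4 library at 0.2 µM, 0.04 without the second, and 0.16 without the last of the 2 µM libraries.

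Nfkb2, which encodes the p100 precursor of the p52 subunit and so belongs to the non-canonical pathway, spans 46304320 to 46312385 of chromosome 19 on the plus strand. It was at 68.5, 61.0 and 67.3 CPM in PBS. Its libraries ranged from 46.6 to 73.6 CPM at 0.2 µM and from 42.4 to 83.4 CPM at 2 µM, and every treated group overlapped PBS. The log2 differences ran from -0.27 to 0.17 over the 9 contrasts (SE 0.19). Its 3′ end overlaps Psd, at a mean of 4.07 CPM on the opposite strand.

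At 0.2 µM against PBS all 7 genes had a difference below 0 with each agent. That of Nfkb2 with TTR-1236, at -0.03, was 0.00 to 0.02 without the first PBS library or without either the second or the third TTR-1236 library. The median of the 7 was -0.30 with TTR-1236, -1.22 with TTR-1186 and -1.45 with Reference 4, where the median of all 9657 genes was -0.00, -0.05 and -0.05. These 3 comparisons share the PBS libraries. The libraries of 3 genes were all below PBS with TTR-1236, of 5 with TTR-1186 and of 6 with Reference 4, and of all genes 5.41%, 9.60% and 10.5% were. Between the doses the median was 0.17, 0.82 and 1.27, and that of all genes -0.07, 0.01 and 0.03. All 3 high dose libraries were above the low dose libraries for none of the 7 genes with TTR-1236 and for 4 with each of the other agents, beside 6.42%, 14.0% and 17.1% of all genes. At 2 µM against PBS the medians were -0.48, -0.27 and -0.13, the last of which was 0.12 without the second Reference 4 library at 2 µM, and 1 gene in each comparison lay wholly below PBS, beside 11.9%, 5.85% and 10.8% of all genes. Since these contrasts chose the genes, nothing is read from the counts.

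**Figure D2:**
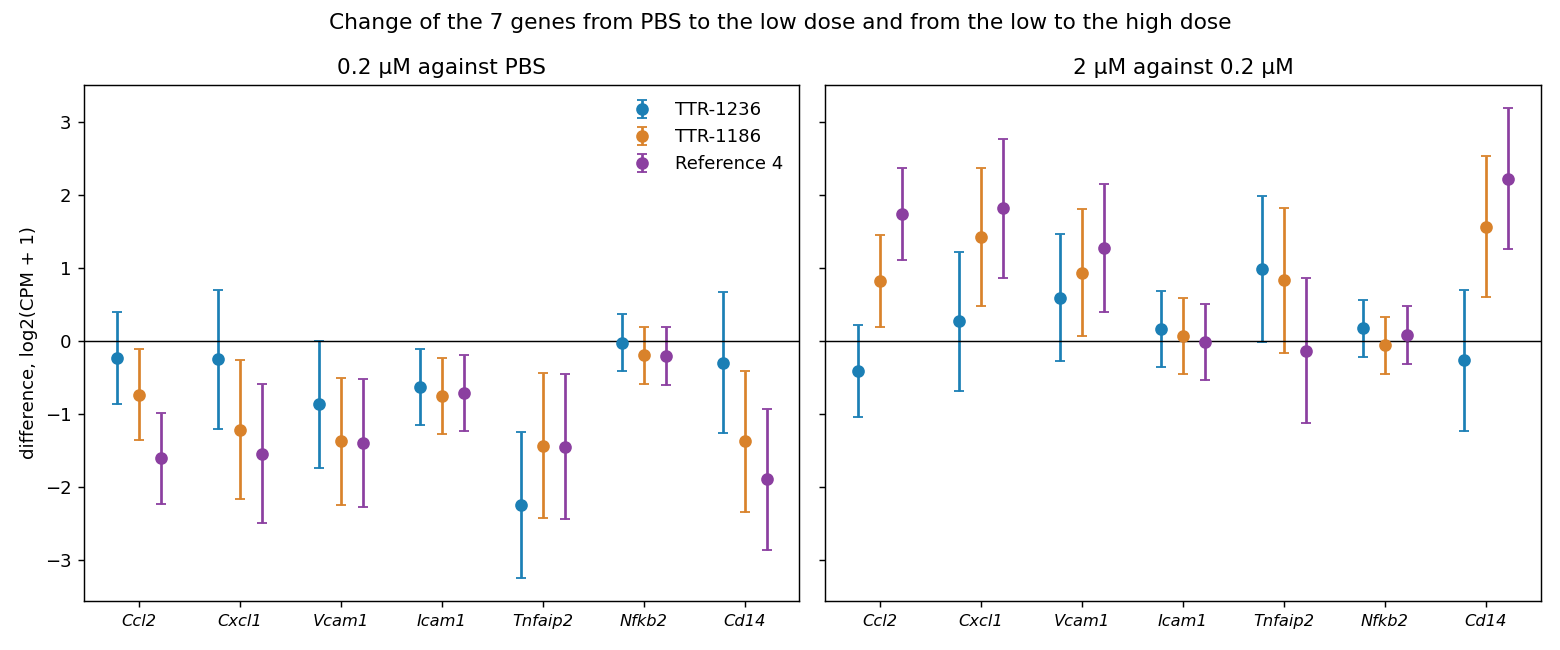
Difference in log2(CPM + 1) (y axis) of each gene (x axis), at 0.2 µM against PBS on the left and at 2 µM against 0.2 µM on the right, by agent. Points are differences of group means of 3 libraries and bars 95% intervals from limma. All 21 points on the left lie below 0, and on the right those of Icam1 and Nfkb2 lie near 0 while Ccl2, Cxcl1 and Cd14 are above 1.4 with Reference 4.

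Some library features moved with the groups. The Reference 4 libraries at 0.2 µM were among the shallowest, at 14158740 to 14971332 reads, and those at 2 µM held 18802476 to 32927430 reads. The share of reads from mitochondrial ribosomal RNA was 2.13% to 3.50% in the former and 0.383% to 1.10% in the latter, and in PBS it was 3.26%, 2.70% and 0.797%. Within groups, the deepest library was also the highest for Ccl2 in 3 of 7 groups. The summed level of Cd68 and Csf1r, the measured Kupffer cell and macrophage markers, was 79.6 to 101 CPM in PBS. It was 102 to 133 and 102 to 157 CPM with TTR-1236 at 0.2 and 2 µM, 86.7 to 88.4 and 77.2 to 120 CPM with TTR-1186, and 85.1 to 184 and 128 to 157 CPM with Reference 4. It was thus wholly above PBS with TTR-1236 at both doses and with Reference 4 at 2 µM. With TTR-1236 the margin was narrow, from 102.4 and 101.95 CPM at the lowest against 101.3 CPM at the highest in PBS. Most of the sum was Cd68, at 67.9 to 174.6 CPM over all libraries, while Csf1r was at 5.87 to 14.4 CPM. The summed stellate markers Dcn, Acta2 and Tagln were 13.97 to 25.5 CPM in PBS, 31.2 to 33.1 and 24.7 to 27.7 CPM with TTR-1236, 28.1 to 41.7 and 35.4 to 52.7 CPM with TTR-1186, and 24.6 to 44.2 and 19.0 to 33.7 CPM with Reference 4. They lay wholly above PBS with TTR-1236 at 0.2 µM and with TTR-1186 at both doses. The endothelial markers Stab1, Stab2 and Eng were 36.6 to 45.4 CPM in PBS and 26.1 to 30.8 CPM with TTR-1186 at 2 µM, the only group wholly below PBS, and ran from 23.4 to 50.8 CPM over the other treated groups. The cholangiocyte markers Krt19, Sox9 and Tspan8 were 40.4 to 54.7 CPM in PBS and 24.98 to 59.5 CPM over the treated groups, each of which overlapped PBS. The part of these features in the levels of the 7 genes was not tested.

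The agents were set side by side at matched doses, over 3 pairs at 2 doses. Each of these contrasts is a difference of contrasts that chose the genes, so the estimates and their 95% intervals from limma are a description and no independent test of the 7 genes. With p-values adjusted by Benjamini-Hochberg over all 9657 genes, limma called 0 of the 42 differences of the 7 genes at 0.05, and 9 had an unadjusted p under it. At 0.2 µM limma called 0 genes of all 9657 in each pair, with 1351, 475 and 685 at an unadjusted p under 0.05 for TTR-1236 against Reference 4, TTR-1186 against Reference 4 and TTR-1236 against TTR-1186. At 2 µM it called 0, 36 and 33 genes in the same order, or 0%, 0.373% and 0.342% of all. There 288, 1196 and 1526 genes had an unadjusted p under 0.05. Nothing is read from these counts for the 7 genes.

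The widest of these differences lay between TTR-1236 and Reference 4 at 0.2 µM. Ccl2 was at a mean of 54.8 CPM with TTR-1236 and 20.6 CPM with Reference 4, a log2 difference of 1.37 with a 95% interval of 0.75 to 2.00. Cd14 was at 18.7 against 5.56 CPM, a difference of 1.60 with an interval of 0.63 to 2.56. Cxcl1 was at 13.01 against 5.0 CPM, a difference of 1.29 with an interval of 0.34 to 2.24. All 3 TTR-1236 libraries were above all 3 Reference 4 libraries for these 3 genes, beside 15.1% of all genes.

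The other pairs at 0.2 µM were closer. Ccl2 was higher with TTR-1186 than with Reference 4 in all 3 libraries, beside 4.97% of all genes, by 0.87 with an interval of 0.25 to 1.502. Between TTR-1236 and TTR-1186 no gene of the 7 was higher in all 3 libraries of TTR-1236, beside 13.0% of all genes, and the differences were 0.50 for Ccl2, 0.96 for Cxcl1 and 1.08 for Cd14. At 2 µM the 3 agents overlapped in every gene but Tnfaip2. The share of all genes that were higher in every library was 3.50% for TTR-1236 against Reference 4 and 6.89% for TTR-1236 against TTR-1186. Tnfaip2 was at 8.19 CPM with TTR-1186 and 3.63 CPM with Reference 4, a difference of 0.97 with an interval of -0.02 to 1.97, and its libraries did not overlap, beside 9.81% of all genes that were higher in this way. Ccl2 was lower with TTR-1236 than with Reference 4 by an estimated -0.77 with an interval of -1.40 to -0.15. For TTR-1236 against TTR-1186 its difference was -0.73, with an interval of -1.35 to -0.10. That of Nfkb2 in the same pair was 0.41, with an interval of 0.01 to 0.80. The intervals reached to either side of the estimate by 0.39 to 0.99 over the 42 differences, so differences within those bounds were not resolved.

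The change from 0.2 to 2 µM was also set side by side between agents, as the interaction of agent and dose, which again combines the contrasts that chose the genes and is given as a description. For TTR-1236 less Reference 4 the difference was -2.15 for Ccl2, with an interval of -3.04 to -1.26, and -2.49 for Cd14, with an interval of -3.85 to -1.12. For Cxcl1 it was -1.55, with an interval of -2.89 to -0.20. Icam1 and Nfkb2 had interaction estimates of -0.15 to 0.23, while each of the other genes had an estimate further from 0 than these. Of the 21 interactions of the 7 genes limma called 0, with 6 at an unadjusted p under 0.05, and it called 0 of all 9657 genes in each of the 3, with 914, 874 and 658 at an unadjusted p under 0.05.

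**Figure D3:**
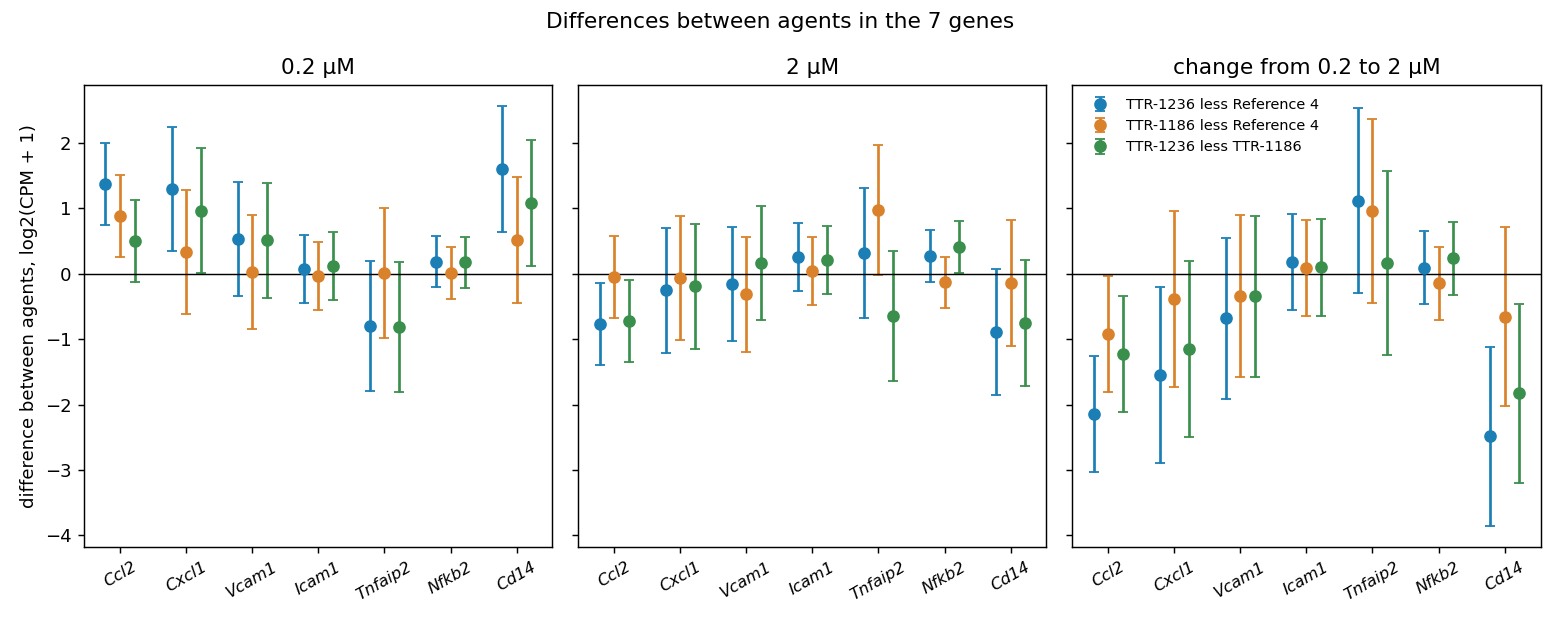
Difference between agents in log2(CPM + 1) (y axis) for each gene (x axis) at 0.2 µM, at 2 µM and in the change from 0.2 to 2 µM, for 3 pairs of agents. Points are limma estimates from 3 libraries a group and bars 95% intervals, given as a description. The TTR-1236 less Reference 4 points of Ccl2, Cxcl1 and Cd14 are above 1 at 0.2 µM and below -1 in the change with dose.

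The 7 genes did not vary as 1 group across libraries. Over the 21 libraries, which share depth and treatment, the Pearson correlation of log2(CPM + 1) was 0.88 between Ccl2 and Cxcl1, 0.95 between Ccl2 and Cd14 and 0.95 between Cxcl1 and Cd14, and after group means were removed it was 0.90, 0.91 and 0.91. Among the other 18 pairs it ran from -0.35 to 0.59, and within groups from -0.75, between Tnfaip2 and Nfkb2, to 0.20. The chemokines and Cd14 were thus high and low in the same libraries of a group, such as the second TTR-1236 library at 2 µM. Within groups the adhesion molecules did not go with them. Over all libraries Vcam1 had r of 0.53 with Ccl2, 0.58 with Cxcl1 and 0.59 with Cd14, and within groups -0.01, -0.00 and 0.04. For Icam1 the values over all libraries were 0.11, 0.17 and 0.10.

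Likeness was measured among 8185 genes whose mean was 5 CPM or more. The genes whose pattern was most like Ccl2 over the 21 libraries were Cd14, Plscr1 (r = 0.93) and Sqor (r = 0.92). Those most like Cxcl1 were Cd14, Ppa2 (r = 0.94) and Sqor (r = 0.93), and those most like Cd14 were Fdx1 (r = 0.95), Ppt1 (r = 0.95) and Cxcl1. Vcam1 was most like Cox18 (r = 0.83), Tgtp1 (r = 0.81) and Fgb (r = 0.81), and Icam1 most like Fam43a (r = 0.80), Itgb5 (r = 0.79) and Npc1 (r = 0.76). Tnfaip2 was most like Prkaca (r = 0.79), Zc3h18 (r = 0.74) and Mcu (r = 0.72), and Nfkb2 most like Dtymk (r = 0.75), Qars (r = 0.73) and Slc12a7 (r = 0.73). The patterns of Ccl2, Cxcl1 and Cd14 were shared widely, with r of at least 0.8 to 119, 241 and 216 of 9348 other genes, against 5 for Vcam1, 1 for Icam1 and 0 for Tnfaip2 and Nfkb2. After group means were removed the counts were 44, 89 and 123, against 1 for Vcam1, 2 for Icam1, 0 for Tnfaip2 and 1 for Nfkb2. The 9348 are all genes with a mean of 5 CPM or more, while the 8185 leave out pseudogenes and genes without an assigned name.

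Of the other genes of the pathway, 42 of 80 listed had values, namely 4 ligands, 6 receptors and co-receptors, all 18 adaptors and kinases, 3 subunits, 6 inhibitors, 3 other targets and 2 adhesion molecules. Over the 6 contrasts with PBS and the 3 between doses, 2 genes passed with limma. Sod2, the mitochondrial superoxide dismutase, rose with Reference 4 from 36.5 ± 7.10 CPM at 0.2 µM to 85.4 ± 15.2 CPM at 2 µM (SD, n = 3), a log2 difference of 1.21 ± 0.28 (SE; limma adjusted p = 0.00879). It was the only 1 of the 42 to rise in that contrast, in which 6.78% of all genes rose, and without the third high dose library its adjusted p was 0.0659. In PBS Sod2 was at 78.1 ± 7.31 CPM, and its difference at 0.2 µM of Reference 4 was -1.09 (limma adjusted p = 0.0972).

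Birc2, the ubiquitin ligase cIAP1 of the tumour necrosis factor receptor complex, fell with TTR-1236 at 2 µM, to 3.10 ± 0.98 CPM from 13.02 ± 8.03 CPM in PBS (SD, n = 3), a difference of -1.58 ± 0.45 (SE; limma adjusted p = 0.0368). In that contrast 4.89% of all genes fell. The call was lost when any 1 of the compared libraries but the third PBS library was left out, with adjusted p up to 0.219. In the other 7 contrasts 0 of the 42 passed with limma, with 4 to 9 at an unadjusted p under 0.05. Those counts were 4, 8 and 5 at 0.2 µM against PBS with TTR-1236, TTR-1186 and Reference 4. Among all 9657 genes they were 665, 928 and 1426. At 2 µM against PBS they were 4 and 5 with TTR-1186 and Reference 4, beside 890 and 1954 of all genes. Between the doses of TTR-1236 and TTR-1186 they were 4 and 9, beside 1112 and 1415 of all genes. Of all genes, 0.0207%, 0.0311% and 0.166% passed at 0.2 µM against PBS with TTR-1236, TTR-1186 and Reference 4, 0.0518% and 2.25% at 2 µM with TTR-1186 and Reference 4, and 0.135% and 0% between the doses of TTR-1236 and TTR-1186.

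The pathway genes with the smallest p in those contrasts did not pass. Ier3, an immediate early survival gene, was at 233 ± 14.1 CPM in PBS and between 152 and 167 CPM on average at 0.2 µM, with limma adjusted p of 0.392, 0.299 and 0.0972 for TTR-1236, TTR-1186 and Reference 4. Rela, the p65 subunit, was at 170 ± 9.0 CPM in PBS and 121 ± 14 CPM with TTR-1186 at 0.2 µM (limma adjusted p = 0.222), and at 136 ± 7.40 CPM with TTR-1236 (limma adjusted p = 0.659). Sod2 with TTR-1186 was at 41.8 ± 17.1 CPM at 0.2 µM and 88.4 ± 25.5 CPM at 2 µM (limma adjusted p = 0.137). The inhibitor-like Bcl3 was at 43.4 ± 4.46 and 68.3 ± 12.3 CPM in the same groups (limma adjusted p = 0.193). Against PBS, Sod2 with TTR-1186 at 0.2 µM differed by -0.97 (limma adjusted p = 0.247).

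At 2 µM against PBS, Nfkb1, which encodes p105 and p50, was at 3.61 ± 1.42 CPM with TTR-1186 and 7.96 ± 1.78 CPM in PBS (limma adjusted p = 0.402). Ier3 with TTR-1186 was at 172 ± 35.2 CPM, a log2 difference from PBS of -0.45 that did not pass. The kinase Irak2 of the interleukin-1 receptor pathway was at 23.8 ± 2.91 CPM with Reference 4 and 10.5 ± 1.59 CPM in PBS (limma adjusted p = 0.0773). The lymphotoxin beta receptor gene Ltbr was at 43.7 ± 5.63 and 83.7 ± 41.5 CPM (limma adjusted p = 0.114), with PBS libraries from 38.5 to 120 CPM. Map3k14, the kinase NIK that drives p100 processing, was at 11.1 ± 4.35 CPM at 0.2 µM and 2.75 ± 0.40 CPM at 2 µM of TTR-1236 (limma adjusted p = 0.201), and in a fit on those 6 libraries alone its adjusted p was 0.0388. In the main fit Birc2, at 8.66 ± 0.30 and 3.10 ± 0.98 CPM in these groups, had a log2 difference of -1.26 that did not pass.

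Of the genes with the highest level of their role, Rela and Ier3 are given above. The inhibitor Tnip1 ranged over group means from 86.5 to 112 CPM, the kinase Irak1 from 112 to 126 CPM, and the lipopolysaccharide-binding protein gene Lbp from 79.7 to 116 CPM. The junctional adhesion molecule gene F11r ranged from 187 to 224 CPM, and the chemokine gene Cxcl16 from 180 to 265 CPM. At 0.2 µM against PBS the median difference of the 42 genes was -0.09, -0.11 and -0.17 with TTR-1236, TTR-1186 and Reference 4, beside -0.00, -0.05 and -0.05 for all genes. Between the doses it was -0.10, 0.05 and -0.03.

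**Figure D4:**
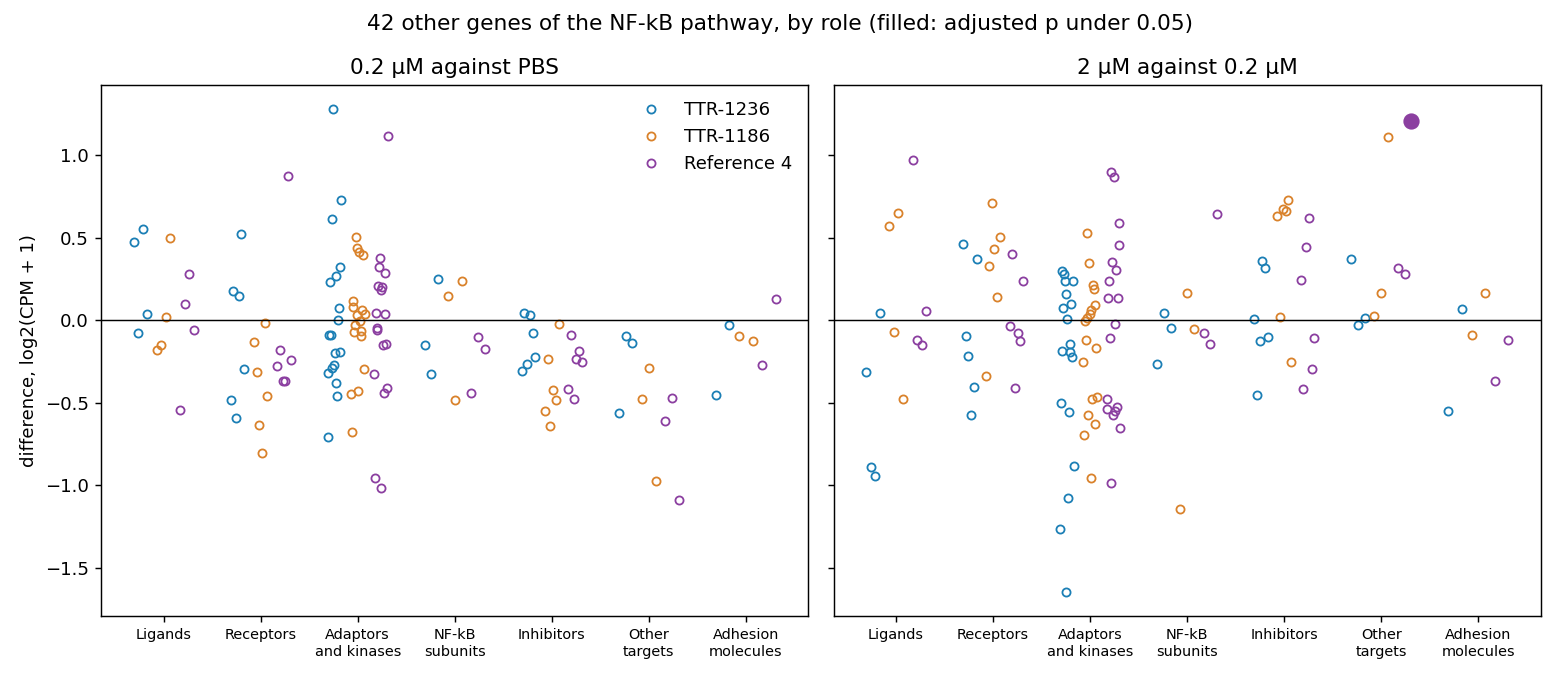
Difference in log2(CPM + 1) (y axis) of 42 other NF-kB pathway genes by role (x axis), at 0.2 µM against PBS and at 2 µM against 0.2 µM, by agent. Each point is 1 gene, from 3 libraries a group, and the filled point passed the limma adjusted threshold. The filled point is Sod2 with Reference 4, and most genes lie between -0.7 and 0.7.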

How the data were processed

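Each of the 21 libraries has its own file of CPM deposited by the authors, in which the 9657 genes sum to 1000000. The submitters' processing notes name cutadapt 1.15, HISAT2 2.1.0, featureCounts and the build mm10, while the settings, the strand and the annotation release were not given in the sources used here. GENCODE on GRCm38 gave symbols for 9651 identifiers. Every value was a whole multiple of 1 step (100% within 0.001 reads), from which library totals, over these genes only, and the reads behind each gene were computed. The planned count tests are not reported. Comparisons between agents, planned as tests, are given as a description because they combine the contrasts that chose the genes. The 7 genes had 22 to 2819 reads a library, with Tnfaip2 and Vcam1 the lowest.

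The test was limma 3.58.1 in R 4.3.3 on log2(CPM + 1), one mean for each of 7 groups, with a trended, robust prior and no further filter. The p-values were adjusted over all genes of a comparison. The 7 genes, the pathway list and the marker lists were chosen with earlier results of these data known. Named pathway genes were those past the threshold, otherwise the 2 of smallest p, and the highest of each role. Alternatives were pseudocounts of 0.5 and 5, a mean of at least 10 CPM, only the libraries compared, a replicate block, each library left out, and, added after seeing the data, 2 rescalings. The limma step was checked on simulated data. No libraries of a group were alike within sampling noise (lowest chi-square per degree of freedom 25.1).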

Additional observations from a re-analysis of the deposited data

How the results depend on the processing

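The median differences of the 7 genes moved by less than the spread between replicates under each setting run. With 1 library left out, 1 of 9 medians and 15 of 63 single differences changed sign (at 0.2 µM against PBS only Nfkb2 with TTR-1236). Under the pseudocounts and rescalings 0 did. The median of Reference 4 at 2 µM against PBS went from -0.13 to 0.12. The planned count tests are not reported: every value was a whole multiple of 1 step, but most libraries held too few values near the lowest to pass the rule set for recovering reads. Before they were set aside, DESeq2 had called Ccl2 and Cd14 for TTR-1236 against Reference 4 at 0.2 µM and in that interaction, and edgeR none of the 7. These contrasts combine those that chose the genes, and no share of all genes was kept, so nothing is read from these calls. In place of TMM scaling, 2 rescalings of the CPM moved the median of all genes by at most 0.0842 (log2). A fit on only the libraries compared gave 2 of the 7 genes past the threshold, Ccl2 and Cd14, for TTR-1236 against Reference 4 at 0.2 µM. The share of all genes past it in that fit was not computed, so nothing is read from this count. For the pathway list that fit gave 0 genes that fell with TTR-1236 at 2 µM against PBS (Birc2 limma adjusted p = 0.183), 1 that fell between its doses and 2 that rose between those of Reference 4. With a mean of at least 10 CPM, 0 genes of the list fell with TTR-1236 at 2 µM against PBS. That filter leaves out Birc2, at a mean of 7.85 CPM, so its call was not tested there. A pseudocount of 5 moved Tnfaip2 with TTR-1236 at 0.2 µM against PBS to -1.33, and Vcam1 with TTR-1186 to -0.83 and with Reference 4 to -0.84 there and 0.77 between doses. With each library left out, the count of the 7 genes in the interaction of TTR-1236 and Reference 4 ranged from 0 to 2. The share of all genes was not computed for these fits either, and nothing is read from that range. The pathway list's falls ranged from 0 to 1 at 0.2 µM of each agent against PBS and from 0 to 4 with TTR-1236 and Reference 4 at 2 µM, the highest in each case without the third PBS library. Its rises ranged from 0 to 1 with TTR-1236 at 2 µM against PBS and from 0 to 2 between the doses of Reference 4. The share of all genes was not computed for these counts of the list, nor for its counts under the other settings. Nothing is read from them. Replicate numbers did not pair the samples: over 63 same-numbered pairs the correlation of deviations ran from -0.39 to 0.29, with 18 over 0.1, and the replicate block left 0 of the 7 genes called and changed no call of the list. The genes with fewest reads, Tnfaip2 and Vcam1, carry the widest counting error.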
